A study of Mus musculus with 3 samples.

Results

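Weak ATF4 peaks that lie on CEBPG peaks were examined in amino acid-starved mouse embryonic fibroblasts. They were selected on 2 measured values, an ATF4 peak score under 80 and an overlap of at least 1 bp with a CEBPG peak. Of 2642 ATF4 peaks, 2455 scored under 80, and 254 of these overlapped a CEBPG peak. The other 2201 weak peaks lay off the CEBPG list, 146 ATF4 peaks of 80 or more were shared with CEBPG, and 41 of 80 or more were not. The score is the value the authors gave each peak, on a scale that no header names. The lowest deposited ATF4 score was 40.02 and the lowest CEBPG score was 40. The ATF4 score and the overlap are therefore given below as descriptions only.

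The cells were primary wild-type fibroblasts of the C57BL/6 strain, isolated from embryos at E13.5, passaged, plated for 24 hours and moved to amino acid deprived (AAD) medium for 3 hours. All cells received this treatment, and no untreated cells were analysed here. Chromatin was fixed with formaldehyde and precipitated with an ATF4 antibody (Santa Cruz, C-20) or with an antiserum against the C-terminus of CEBPG made by the submitting laboratory. Each antibody gave 1 library of single-end 36 bp reads from its own lane, and a GFP antibody library was not analysed here. No value therefore carries an error between cultures, intervals cover counting error only, and peaks within a library are not replicates of a condition. The lists hold no read counts, so depth is unknown, and no expression values, so the labelled cell type was not checked.

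ATF4 is a basic leucine zipper (bZIP) transcription factor whose translation increases when amino acids run short and eIF2α is phosphorylated. CEBPG is a bZIP protein of the C/EBP family that lacks a strong activation domain of its own and binds DNA as a partner of other bZIP proteins, ATF4 among them. Dimers of ATF4 with a C/EBP protein bind composite elements made of a C/EBP part and an ATF part, found at genes for amino acid synthesis, amino acid transport, tRNA charging and stress signalling.

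The sequences that follow are a selection from the gene starts that weak shared peaks overlapped, with the 8-base motif matches in capitals. Those at Taco1, Taco1os, Ank2, Gm36111, Nudt21 and Ogfod1 are not printed. They come from RefSeq windows of GRCm38.p6 (mm10) that run from 250 bases before to 50 after a listed start, and only bases before the start are printed, apart from a 30-base site at Trib3. Each is read 5′ to 3′ along the gene. For Nupr1 the stretch is that covered by the CEBPG peak, because the match lay outside the ATF4 peak. For the others it is the stretch covered by the ATF4 peak. Aars, Herpud1, Nupr1, Got1 and Trib3 belong to the amino acid and stress gene lists described below, whereas Knl1 encodes a kinetochore protein. Ptbp1 is shown as the peak whose window held none of the motifs in capitals.
Aars, chr8:111033616-111033841, plus strand: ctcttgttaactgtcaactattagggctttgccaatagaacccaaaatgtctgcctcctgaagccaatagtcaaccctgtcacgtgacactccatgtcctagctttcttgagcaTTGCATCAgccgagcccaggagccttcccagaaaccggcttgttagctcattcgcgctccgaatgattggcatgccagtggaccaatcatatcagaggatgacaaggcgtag
Herpud1, chr8:94386179-94386404, plus strand: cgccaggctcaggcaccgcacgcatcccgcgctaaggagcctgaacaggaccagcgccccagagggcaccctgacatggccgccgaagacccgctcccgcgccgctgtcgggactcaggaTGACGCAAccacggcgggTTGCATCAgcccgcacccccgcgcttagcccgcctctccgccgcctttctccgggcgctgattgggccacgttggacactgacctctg
Nupr1, chr7:126625471-126625720, minus strand: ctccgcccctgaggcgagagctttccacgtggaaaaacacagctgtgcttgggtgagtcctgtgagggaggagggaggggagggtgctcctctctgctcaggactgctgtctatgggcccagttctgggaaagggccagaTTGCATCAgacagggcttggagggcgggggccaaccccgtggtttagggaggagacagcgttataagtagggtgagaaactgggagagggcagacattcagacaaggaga
Got1, chr19:43524647-43524838, minus strand: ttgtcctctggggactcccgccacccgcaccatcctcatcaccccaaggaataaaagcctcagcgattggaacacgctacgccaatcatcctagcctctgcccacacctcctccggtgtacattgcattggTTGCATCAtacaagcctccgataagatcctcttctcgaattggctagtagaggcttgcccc
Knl1, chr2:119046869-119047005, plus strand: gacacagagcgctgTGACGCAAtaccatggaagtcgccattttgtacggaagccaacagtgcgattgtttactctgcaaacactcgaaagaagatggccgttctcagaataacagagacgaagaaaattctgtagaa
Ptbp1, chr10:79854182-79854398, plus strand: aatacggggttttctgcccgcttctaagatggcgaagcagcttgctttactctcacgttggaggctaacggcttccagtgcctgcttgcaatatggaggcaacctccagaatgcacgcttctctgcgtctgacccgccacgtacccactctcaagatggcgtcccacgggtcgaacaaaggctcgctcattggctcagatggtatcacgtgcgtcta
Trib3, chr2:152344028-152344057, minus strand: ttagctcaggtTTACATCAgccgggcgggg

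Of the 254 peaks, 11 overlapped such windows, 13 windows in all, because Taco1 and Taco1os share a peak, as do Nudt21 and Ogfod1, and each pair shares sequence. By peak, the motif TGATGNAA, searched on both strands, was present for 7 of the 11. By window, it occurred in 7 of the 13 (53.8%, 95% Wilson interval 29.1 to 76.8%), against 3.97% of all 32851 windows. The interval counts paired windows as separate. It occurred in 12 of 20 windows under shared ATF4 peaks of 80 or more, in 1 of 13 under weak ATF4 peaks off the CEBPG list, and in 72 of 372 under CEBPG peaks without ATF4 (19.4%). Here and below, windows were not matched for CEBPG score, and its part in these differences was not tested. The CEBPG score was 139.2 to 2724.51 at the 13 windows, whereas its median over all CEBPG peaks without ATF4 was 47.1. That median is not limited to the peaks at the 372 windows, whose scores are not given here. The stricter TGATGCAA, which is TTGCATCA on the other strand and lies within TGATGNAA, was in 6 of the 13 windows, against 0.895% of all. In 6 of the 7 peaks whose window held TGATGNAA, a match lay inside the ATF4 peak.

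TGACGCAA was added to the search after the sequences had been seen. It occurred in 5 of the 13 windows, which belong to 4 peaks, against 0.490% of all windows, in 43 of the 372 windows under CEBPG peaks without ATF4 (11.6%), and in 1 of 20 under shared ATF4 peaks of 80 or more. Either motif was present for 10 of the 11 peaks, and for 11 of the 13 windows (84.6%). The share was 4.43% of all windows, 29.6% under CEBPG peaks without ATF4 and 12 of 20 under shared ATF4 peaks of 80 or more, the same count as for TGATGNAA alone. The exception was the peak at Ptbp1, which encodes an RNA-binding splicing factor. The palindrome TGACGTCA was in none of the 13 windows (1.79% of all), and TGANTCA was also in none (7.81% of all). TTGCNNAA was in 2 of them, against 10.8% of all windows. These matches describe letters in the windows and are not measured binding sites.

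The matches listed here lay within 40 bp of the ATF4 midpoint, apart from the match at Nupr1, the second match at Aars and 1 of the 3 at Gm36111. Positions are counted along the gene from the listed start at 0, to the first base of the match. At Aars, which encodes alanyl-tRNA synthetase, TTGCATCA began at -112, with its centre 12.5 bp from the ATF4 midpoint and 18 bp from the CEBPG midpoint, and a second match, TTTCATCA, began 9 bases after the start. Herpud1, a membrane protein of endoplasmic reticulum-associated degradation, had TTGCATCA at -112 and TGACGCAA at -130, at 30 and 12 bp from the ATF4 midpoint. For Got1, the cytosolic aspartate aminotransferase, TTGCATCA began at -102, 39 bp from the ATF4 midpoint and 15 bp from that of CEBPG. The Nupr1 match, at -110, was 37 bp from the CEBPG midpoint but 167.5 bp from the ATF4 midpoint, whose own peak runs from 79 bases before the start into the gene. At Trib3 the match TTACATCA began 14 bases after the start and lay 0.5 bp from the CEBPG midpoint. TGATGCAA began at -65 for Ank2, which encodes an ankyrin, 22.5 bp from the ATF4 midpoint, and at -17 for Gm36111, a gene model not listed as protein-coding, 20.5 bp from it, where 2 further TGATGNAA matches lie at 36.5 and 161.5 bp, the farther of them outside the ATF4 peak. TGACGCAA began at -236 for Knl1, 12.5 bp from the ATF4 midpoint. In the window shared by Nudt21 and Ogfod1 the TGACGCAA match lay 0.5 bp from the ATF4 midpoint.

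**Figure D1:**
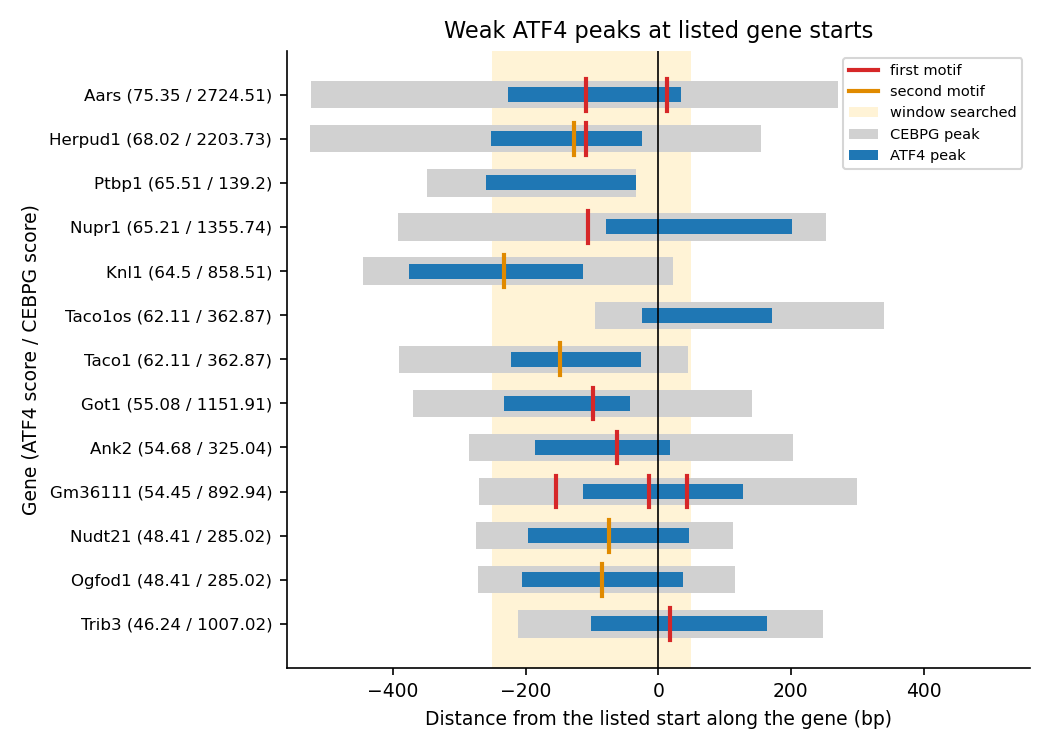
Extent of the ATF4 peak (blue) and the CEBPG peak (grey) along each gene, in bp from the listed start, with the 300-base window searched shaded and each gene's ATF4 and CEBPG scores in its label. Red ticks mark TGATGNAA and orange ticks TGACGCAA. The ticks lie within the CEBPG peak at every gene that has one, and the tick at Nupr1 and 1 of the 3 red ticks at Gm36111 lie outside the ATF4 peak.

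The CEBPG score beneath the weak ATF4 peaks covered nearly the whole range of the CEBPG list, which runs from 40 to 3205.83. The median was 571 (exact 95% interval 491 to 732), with quartiles of 228 and 1176 and a range of 40.19 to 3133.62, whereas the median over all 25419 CEBPG peaks was 47.2. Overlap chose the members, and CEBPG score followed CEBPG width (Spearman's rho 0.85, n = 254), so this comparison is a description. Beneath the 146 shared peaks of 80 or more, the median CEBPG score was 1992 (1525 to 2204). A CEBPG score of 1000 or more was found beneath 84 of the 254 (33.1%, 27.6 to 39.1%), against 104 of the 146 (71.2%, 63.4 to 78%). At the other end, 39 of the 254 (15.4%) lay on a CEBPG peak under 100, against 2 of the 146. The score of 3100, the highest value shared by many CEBPG peaks, occurred beneath 4 of the 254 and 32 of the 146.

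**Figure D2:**
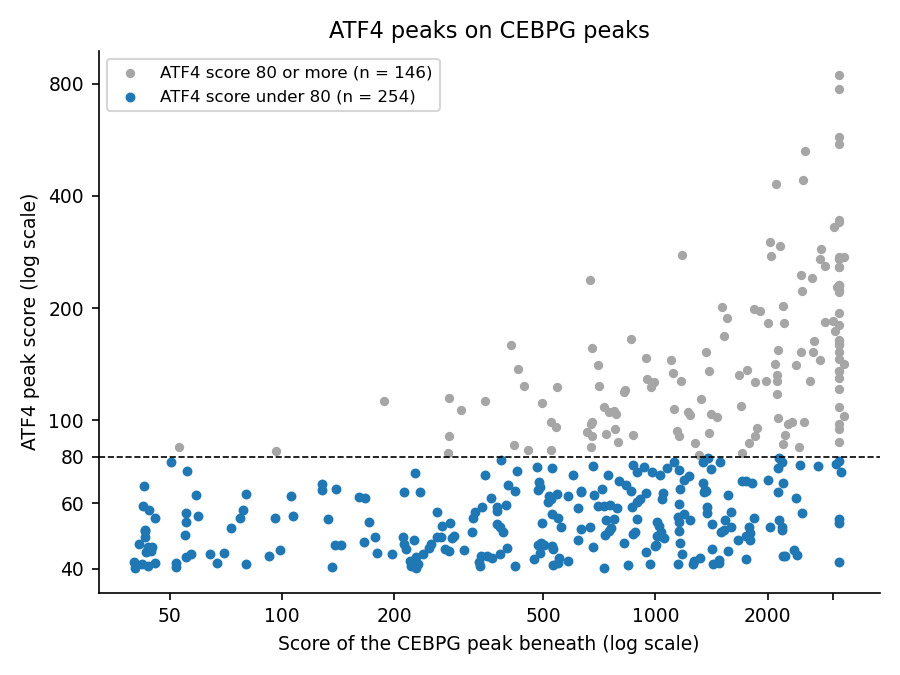
Score of each shared ATF4 peak (vertical, log scale) against the score of the CEBPG peak beneath it (horizontal, log scale), with the limit of 80 drawn. Points below the limit are spread over CEBPG scores from 40.19 to 3133.62, and those above it lie mostly at 1000 or more.

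Within the 254 peaks the ATF4 score followed the CEBPG score only loosely. Spearman's rho was 0.26 (n = 254), and it was 0.55 over the 146 shared peaks of 80 or more. The points share the same 2 libraries, and the ATF4 score of the 254 spans a short range, so these values are descriptions. By ATF4 score, 58 of 1191 peaks from 40 to 45 were shared (4.87%), with a median CEBPG score of 340 beneath. From 50 to 60 it was 72 of 458 (15.7%), with a median of 716, and from 70 to 80 it was 32 of 61 (52.5%), with a median of 1050. The next band, from 80 to 100, had 36 of 52 shared (69.2%) and a median of 1004. The median beneath the peaks thus differed little on the 2 sides of the limit.

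The 5 shared peaks on each side of the limit were as follows. Just inside lay a peak within Apip, an enzyme of methionine salvage (ATF4 79.51, CEBPG 1382.84), and a peak 560 bp from Stk40, also within 5 kb of Lsm10 (79.45, 2141.73). They were followed by a peak 330 kb from Klf12 (78.13, 385.85), one near Hspa9 (78.09, 3100) and one 310 kb from N6amt1 (77.58, 1489.36). Just outside lay peaks 746 kb from Nr2f1 (80.89, 1309.04), within Paqr3 (81.95, 277.6), at Gadd45a (82.01, 1702.45), within Eefsec (82.65, 96.49) and 211 kb from Mctp2 (83.15, 454.71). Both sides of the limit held CEBPG scores under 500 and over 1000.

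Seen from the CEBPG list, weak ATF4 peaks were most frequent on CEBPG peaks of intermediate to high score. A weak peak was the highest ATF4 peak on 0.118% of CEBPG peaks from 40 to 50, 3.23% from 100 to 500, 15.6% from 500 to 1000 and 31.2% from 1000 to 2000 (25 to 38.2%). The share then fell to 26.6% from 2000 to 3000 and 13% at 3000 or more, where 82.6% carried an ATF4 peak of 80 or more. Of the 296 CEBPG peaks of 1000 or more, 81 had a weak ATF4 peak as their highest, 104 had an ATF4 peak of 80 or more, and 111 had no listed ATF4 peak. In all, 254 CEBPG peaks carried a weak ATF4 peak. Of these, 2 carried 2 of them, and 2 ATF4 peaks each overlapped 2 CEBPG peaks.

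**Figure D3:**
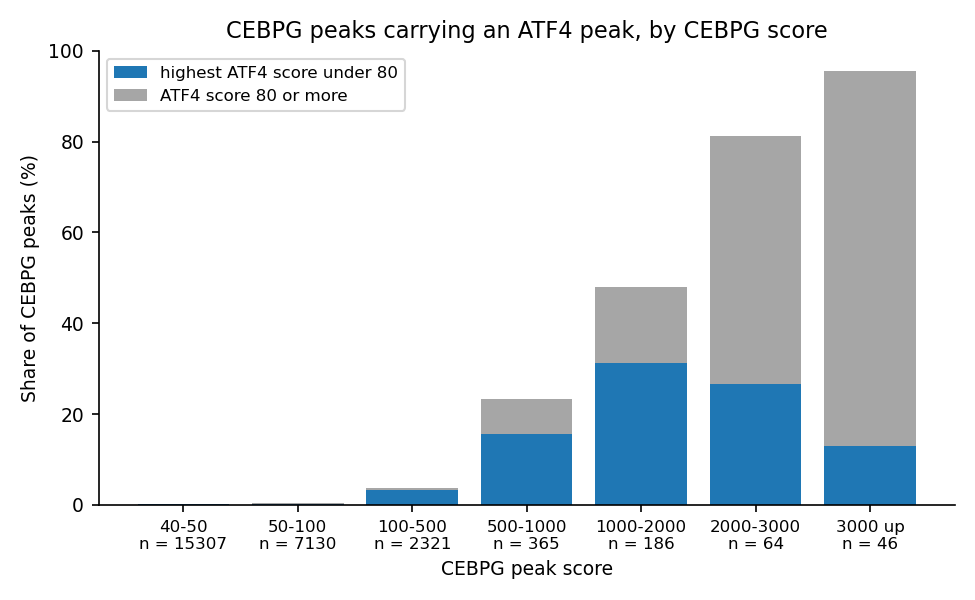
Share of CEBPG peaks in each score band that overlap an ATF4 peak under 80 or of 80 or more, in percent. The weak share is highest from 1000 to 2000 (31.2%), and the strong share rises to 82.6% at 3000 or more.

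Some of the highest CEBPG scores lay beneath low ATF4 scores and far from genes. The highest, 3133.62, lay beneath an ATF4 peak of 72.89 that is 6.54 kb from Vldlr, which encodes a lipoprotein receptor. A CEBPG score of 3100 lay beneath a peak 338 bp from Hspa9 (ATF4 78.09) and a peak within Trat1 (54.29). It also lay beneath a peak 295 kb from Actbl2 (53.1) and a peak 54.9 kb from Fndc3b (41.61). Scores of 3050.5, 2434.69 and 2350.76 lay beneath peaks 29.5 kb from Irx3 (76.38), 206 kb from Ppp2r3a (76.05) and 125 kb from Tars (45.06). Closer to genes, the Aars peak had a CEBPG score of 2724.51 (ATF4 75.35), and a peak 2395 bp from Irf2bp2 had 2467.19 (56.47). A peak within Nrf1, which encodes nuclear respiratory factor 1, had 2395.63 (43.56), and one within Rin1, also within 5 kb of Brms1, had 2384.15 (61.86).

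The lowest CEBPG scores lay beneath ATF4 scores that were not always the lowest. Beneath the peak within Sh3glb1, the CEBPG score was 42.59 and the ATF4 score 66.79, and 219 kb from Tle3 the scores were 42.51 and 58.98. The other 4 lay 100 kb from Id4 (CEBPG 40.19, ATF4 41.82), within Lrp1b (40.5, 40.27), near Hrh4 (41.53, 46.64) and 125 kb from Zfp770 (42.25, 41.19). None of these 6 has a midpoint within 1 kb of a gene end, meaning either boundary of the gene span.

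The midpoints of the paired peaks were close, and the median distance was 44.2 bp (38.5 to 51), with quartiles of 20 and 82.5 bp and a range of 0.5 to 379 bp. It was 43 bp (34.5 to 49.5) for the 146 shared peaks of 80 or more. The overlap rule by itself keeps midpoints close, since the median width was 217 bp for the ATF4 peaks and 522 bp for the CEBPG peaks beneath them. Of the 254, 143 (56.3%) had midpoints within 50 bp and 206 (81.1%, 75.8 to 85.4%) within 100 bp, against 134 of the 146 within 100 bp (91.8%, 86.2 to 95.2%). The 2 sets had close medians but differed above them, with upper quartiles of 82.5 bp for the weak peaks and 66.12 bp for the stronger ones. The largest distance was 379 bp among the weak peaks and 134 bp among the stronger ones. The distance had no visible relation to the CEBPG score (Spearman's rho 0.02, n = 254).

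**Figure D4:**
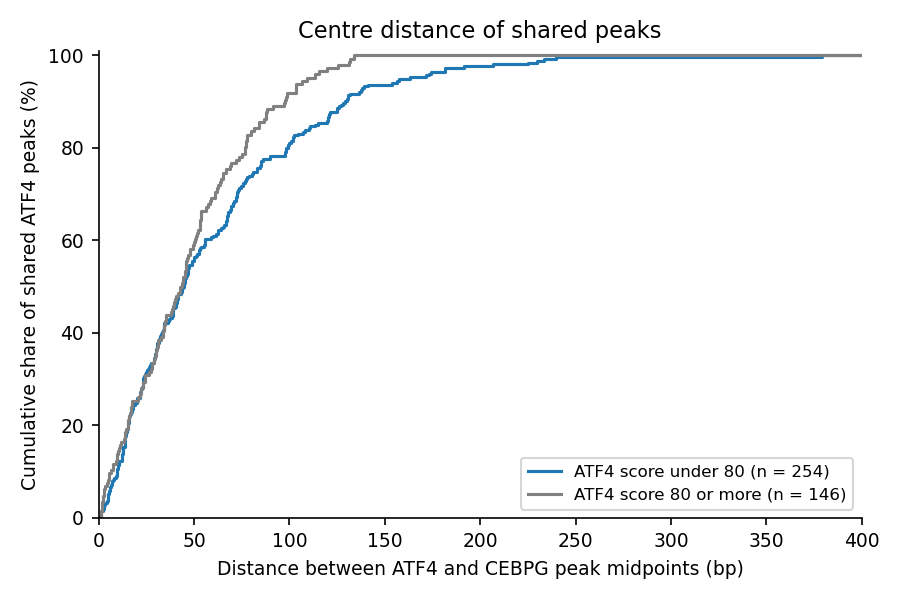
Cumulative share of shared ATF4 peaks (percent) by the distance between ATF4 and CEBPG midpoints (bp), for ATF4 scores under 80 (n = 254) and of 80 or more (n = 146). The curves overlap up to about 50 bp, after which the stronger peaks end at 134 bp and the weaker at 379 bp.

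The weak peaks were mostly contained in the CEBPG peak. Of the 254, 201 (79.1%) lay wholly inside it, against 132 of the 146 (90.4%), and 240 were covered over at least 50% of their length. The other 14 were covered over less, with the smallest overlap 1 bp. Midpoints were more than 200 bp apart for 6 peaks, among them the peak within Sel1l (230 bp) and a peak within 5 kb of Hspa9 (379 bp).

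Location relative to genes was not used to choose the peaks. A gene end here is either boundary of the listed gene span, so it can be the side where the gene starts. A protein-coding gene end lay within 5 kb of 65 of the 254 (25.6%, 20.6 to 31.3%). The share was 28.1% (21.4 to 35.9%) for the 146 shared peaks of 80 or more, 12.5% (11.2 to 13.9%) for the 2201 weak ATF4 peaks off the CEBPG list, and 13.6% (13.2 to 14%) for the CEBPG peaks without ATF4. The interval of the weak shared peaks overlapped that of the stronger shared peaks and lay above those of the other 2 sets. The midpoint was within 1 kb of an end for 27 (10.6%, 7.41 to 15%), against 3.59% (2.89 to 4.45%) of weak peaks off the CEBPG list. These 2 weak sets were not matched for ATF4 score (median 52.88 on the list, 44.9 off it). Nor were they matched for width (217 and 158 bp), and the part of either in the difference was not tested.

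CEBPG peaks without ATF4 were also compared within bands of CEBPG score. At CEBPG scores of 40 to 50 the share within 5 kb was 23.5% (4 of 17) for the weak shared peaks and 12.1% for CEBPG peaks without ATF4, and at 50 to 100 it was 22.7% (5 of 22) against 14.6%. From 100 to 500 it was 25.7% (17.1 to 36.7%) against 20.2% (18.6 to 21.9%), from 500 to 1000 26.3% (16.6 to 39%) against 19.3% (15.1 to 24.3%), and from 1000 to 2000 21.7% against 19.6%. The bands above hold few peaks, with 8 of 18 against 3 of 12 from 2000 to 3000 and 1 of 6 against 0 of 2 at 3000 or more. The share was thus higher for the weak shared peaks in all 7 bands, although the intervals overlapped in each band taken singly. A comparison added after seeing the data weighted the CEBPG peaks without ATF4 by the number of weak shared peaks in each band. It gave 18.7%, or 47.4 of 254, against the observed 65. This weighted share lay between the unweighted 13.6% and the 25.6% of the weak shared peaks. It has no interval of its own, and its bands from 2000 up rest on 12 and 2 CEBPG peaks without ATF4. Peak width was not matched, and its part in the difference was not tested.

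**Figure D5:**
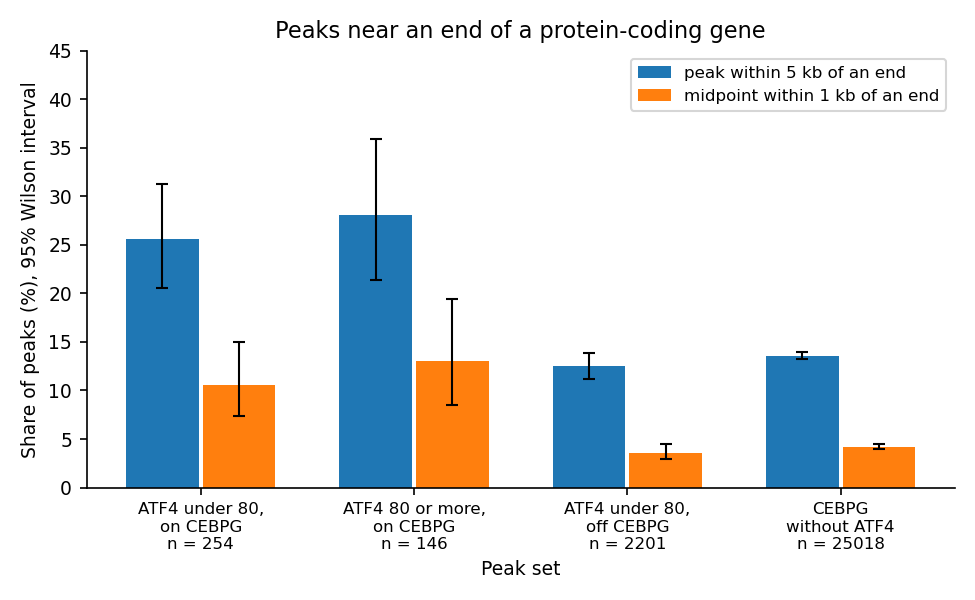
Share of peaks within 5 kb of a protein-coding gene end (percent, with 95% Wilson intervals) for weak ATF4 peaks on CEBPG, stronger shared peaks, weak peaks off the CEBPG list and CEBPG peaks without ATF4. The first 2 sets lie at 25.6% and 28.1%, and the last 2 at 12.5% and 13.6%. A gene end is either boundary of the gene span.

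Most of the 254 lay away from gene ends. Of them, 70 were inside a gene more than 5 kb from an end, 29 were outside genes at under 20 kb, 39 at 20 to 100 kb and 51 at 100 kb or more. The median distance to an end was 22604 bp. Starts with strand were listed for the chromosomes of 243 peaks, and 20 of these (8.23%) had a midpoint within 1 kb of a start, 10 upstream and 10 downstream. On all chromosomes together, 17492 of the 21887 protein-coding genes had a listed start. Counts by listed start or start window therefore miss peaks at the starts of other genes. The 254 peaks were spread over 20 chromosomes. Only 4 lay within 20 kb of an ATF4 peak of 80 or more, so few were neighbours of a stronger ATF4 peak.

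In all, 78 of 21887 protein-coding genes (0.356%) had a weak shared peak within 5 kb of an end. Among 70 genes of amino acid synthesis, amino acid transport, tRNA charging and stress regulation, 8 had one (11.4%). For shared ATF4 peaks of 80 or more the counts were 15 of the 70 (21.4%) and 0.247% of all genes, and for weak ATF4 peaks off the CEBPG list 2 of the 70 (2.86%) and 1.45% of all genes. Counting by gene ends leaves out some shared ATF4 peaks of 80 or more at starts. Examples are peaks with midpoints 26 bp from the listed start of Slc7a11 and 414 bp from that of Mthfd2. Of the 8 genes, 7 had no shared ATF4 peak of 80 or more. Any CEBPG peak was within 5 kb for 56 of the 70 genes and 16.5% of all genes, so most of these genes carry CEBPG in either case. The lists were chosen with earlier results of these data known, and the counts are descriptions.

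Among amino acid synthesis and one-carbon genes, 3 of 16 carried a weak shared peak. The peak at Got1 had an ATF4 score of 55.08 and a CEBPG score of 1151.91. Aldh1l2, a mitochondrial enzyme that oxidises 10-formyl-tetrahydrofolate, had 50.27 and 884.51, and Mthfd1l, the mitochondrial formyl-tetrahydrofolate synthetase, had 40.45 and 135.97. Each midpoint was within 1 kb of a boundary of the gene span, at 138, 816 and 836 bp. At Got1 this boundary was the listed start. None of 13 amino acid transporters had such a peak. At the 0.356% of all protein-coding genes, a list of this size would mostly have none.

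Among 20 aminoacyl-tRNA synthetases, Gars, the glycyl-tRNA synthetase, had ATF4 51.78 on CEBPG 383.36, with midpoints 3.5 bp apart. The Aars peak (75.35 on 2724.51) was not counted, because the listed gene span extends farther and its end is more than 5 kb away, but its midpoint is 96 bp before the listed start. Counting a listed start as well as an end gave 82 genes and added Aars to the genes of these lists.

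Among 21 stress-response regulators, 4 had a weak shared peak. Herpud1 had ATF4 68.02 on CEBPG 2203.73, and Nupr1, a stress-induced nuclear protein, had 65.21 on 1355.74. Trib3, a pseudokinase induced by ATF4, had 46.24 on 1007.02, with the midpoint 31 bp inside the gene, counted from its listed start. Sesn2, a leucine-binding inhibitor of mTORC1, had 52.08 on 267.95 and was the only gene of the 8 that also had a shared ATF4 peak of 80 or more. The CEBPG score at Sesn2 was the lowest of these 4 genes and that at Herpud1 the highest.

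The lists of protein handling and translation held the next genes. Sel1l, an adaptor of the endoplasmic reticulum ubiquitin ligase complex, had the highest ATF4 score of these lists apart from Hspa9, 77.5 on CEBPG 1339.93. Of 16 translation initiation genes, Eif1, a factor of start codon selection, had 71.34 on 1027.63, and Eif3c, a subunit of eIF3, had 54.08 on 2141.86. Of 17 genes of amino acid sensing, Rheb, a GTPase that activates mTORC1, had 46.42 on 503.12. Hspa9, the mitochondrial Hsp70, was the only gene with more than 1 such peak. One was 338 bp from the gene (78.09 on 3100), and 2 more at 4349 and 4643 bp (47.92 and 49.9) lay on a single CEBPG peak of 1797.63.

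Other lists had few or none. Col1a2, a chain of type I collagen, was the only one of 22 extracellular matrix genes, with ATF4 50.52 on CEBPG 43.05, and the peak was 4647 bp from the gene. The 14 autophagy genes, 27 genes of the C/EBP, ATF and AP-1 families, 17 clock genes, 16 glutathione genes, 18 inflammatory genes and 16 genes each of neurons, blood cells and hepatocytes had none. At the 0.356% of all protein-coding genes, lists of these sizes would mostly have none, so a count of none does not set them apart. Over all 17 lists, 14 of 285 genes had one (4.91%), against that 0.356%.

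Further genes had a peak with its midpoint within 1 kb of a listed start. The peak 560 bp from Stk40, a kinase-like protein, had ATF4 79.45 on CEBPG 2141.73. Ptbp1 had 65.51 on 139.2, Krtcap2 with neighbouring Trim46 64.84 on 630.84, and Knl1 with neighbouring Rpusd2 64.5 on 858.51. Taco1, a translational activator of mitochondrial cytochrome oxidase, had 62.11 on 362.87, and Marchf6, a ubiquitin ligase of the endoplasmic reticulum, had 56.94 on 329.82. These lie at lower CEBPG scores than Stk40, Aars and Herpud1. Ppp1r15b, the constitutive targeting subunit of the eIF2α phosphatase, was chosen after its values were seen. It had ATF4 47.73 on CEBPG 1663.64, 80 bp outside the nearer boundary of its gene span. The peaks near Sprr2a1 and Sprr2a3 (56.16 and 64.27) are uncertain, because these genes are close copies and reads could be placed at either.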

How the data were processed

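ChIP-seq peak lists of the ATF4 and CEBPG libraries (1 each) were used. Per the submitters' processing notes, the build was mm10 and the tools included MACS 1.4.2, BWA, HOMER and Trimmomatic, whose settings are not given in the sources used here. Whether the GFP library served as peak-calling background is not given either. Each deposited list gives the peak position and, as the last field of the name (column 4), a score, which was used as the authors' value. Column 5 was blank and column 6 held 0. No pooling is recorded, and read depth is unknown.

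Peaks sharing at least 1 bp were paired, with the CEBPG peak of highest score taken where several overlapped. Medians have exact order-statistic intervals and shares have Wilson intervals, both at 95%. Gene ends, starts and windows came from RefSeq tables of GRCm38.p6, the same build, for 21887 protein-coding genes. All 285 list genes matched, 2 entries by synonym. Python 3.11.15, pandas 2.3.3, NumPy 2.4.6, SciPy 1.17.1 and matplotlib 3.10.9 were used, and the pairing was tested on simulated data. The members, gene lists and motifs were chosen with earlier results of these data known, and TGACGCAA after the sequences had been seen. Named genes were those at the 12 highest and 6 lowest CEBPG scores, the 5 peaks on either side of the limit, all list genes with a peak, genes with 2 or more, and the 10 highest ATF4 scores within 1 kb of a start. Outside this rule, and chosen after their values were seen, are Ank2, Gm36111, Nudt21, Ogfod1 and Taco1os (peaks that overlap a start window), Ppp1r15b, Sprr2a1, Sprr2a3 and Mir7663. Alternatives changed the score limits, the overlap, the centre distance and the gene distance. No test was run, because there is 1 library per antibody.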

Additional observations from a re-analysis of the deposited data

How the results depend on the processing

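Of 59 alternative values of 7 results, 44 stayed within the interval or 1.5 times of the reported value and 15 moved. The 44 include values that could not move. Leaving out ATF4 peaks over 1 kb wide changed nothing, because none of the 254 was that wide. Taking the nearest CEBPG midpoint could differ only for the 2 peaks that overlap 2 CEBPG peaks. With ATF4 scores of at least 50, there were 152 peaks, a median CEBPG score of 753.65 and 51 genes within 5 kb, and with ATF4 scores under 60 there were 45 genes. With CEBPG scores of at least 100 the median CEBPG score was 750.23. Requiring an overlap of 50% of both peaks left 81 peaks, a median CEBPG score of 234.84, a centre distance of 31.5 bp, 30 genes and 3 list genes. This rule removes narrow ATF4 peaks on wide CEBPG peaks, and CEBPG width followed score (Spearman's rho 0.85, n = 254). Requiring centres within 100 bp gave a median distance of 33.75 bp. Genes numbered 190 within 20 kb of an end and 147 with the gene span included. The share within 5 kb was 16.9% to a listed start, which not every gene has, and 32.7% to any gene of the reference table. Counting a listed start beside an end was added after seeing the data. No paired analysis was possible because there is 1 library per antibody and no test. Depth is unknown, the untreated state was not measured in these lists, and an ATF4 peak below the deposited minimum score would count as absent.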

Other observations

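The only microRNA gene with a weak shared peak within 5 kb was Mir7663, beneath an ATF4 score of 43.2 and a CEBPG score of 2197.93. Few weak shared peaks lay near each other: 5 had another within 20 kb and 19 had another within 100 kb. Chromosome 3 held the most, 24 of 254, and chromosome Y held none. Of all 2642 ATF4 peaks, 6 (0.227%) lay on chromosome Y or the mitochondrion. The count on chromosome 3 was not set against chromosome length or all ATF4 peaks.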
